A study of Homo sapiens with 9 samples.

Results

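The ID genes and the genes of their E protein partners were followed on whole transcriptome arrays in BL2 cells, an established human Burkitt lymphoma line with features of germinal centre B cells. The members are ID1, ID2, ID3, ID4, TCF3, TCF4 and TCF12, 7 of the 19775 genes that the arrays name. All probe sets that the platform annotation gives to exactly 1 of these 7 genes were taken, 35 of the 54675 probe sets on the HG-U133 Plus 2.0 array. ID1 and ID3 have 1 probe set each, ID2 has 2, ID4 has 5, TCF3 has 14, TCF4 has 8 and TCF12 has 4. This gives 9 probe sets for the ID genes and 26 for the E protein genes. The genes were selected on measured values of these same arrays: the falls of ID genes after CD40L and after LPS were already known. The differences of the members from control, and which of them passed the threshold of the fit, are therefore given as descriptions, with no p-value and no test drawn from them.

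The arrays hold 3 groups of 3. BL2 cells had been stimulated for 6 hrs with recombinant human CD40L or for 6 hrs with LPS, or were left unstimulated as control. CD40L, given here as a soluble protein, is the ligand of the receptor CD40 that T cells normally provide. LPS is a bacterial lipopolysaccharide sensed by Toll-like receptor 4. Each of 3 batches, which the study describes as separate biological experiments, gave 1 array of each group. The labels give no time for the control arrays, so whether they were matched to 6 hrs is not known. Time in culture can therefore not be told apart from the stimulus in a difference from control. The same control arrays serve both comparisons. All groups are the same tumour line, so they stand for 1 transformed B cell clone and not for normal B cells. P-values here measure how evenly a difference between groups repeated over the batches of this line. Shifts of a whole batch are taken out by the fit, which also draws on the spread of all probe sets.

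ID proteins are helix-loop-helix proteins that lack the basic region needed to bind DNA. They pair with E proteins and keep them off their target sites, the E-boxes. The E proteins TCF3 (which gives E12 and E47), TCF4 (E2-2) and TCF12 (HEB) are basic helix-loop-helix activators that B cell development depends on, and ID3 and TCF3 are recurrently mutated in Burkitt lymphoma. ID genes are also known targets of BMP receptors and their SMAD1, SMAD5 and SMAD9 transducers.

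All 9 ID probe sets were lower on average in CD40L and in LPS stimulated cells than in control cells. ID1 was lower by a factor of 4.02 after CD40L and of 3.73 after LPS. ID3 was lower by a factor of 1.98 after CD40L and 1.75 after LPS, ID4 by 1.78 after CD40L and 1.71 after LPS, and ID2 by 1.45 after CD40L and 1.35 after LPS. The main probe sets of the E protein genes differed from control by between -0.14 and -0.0013 on the log2 scale after either stimulus, and all 26 of their probe sets by between -0.27 and 0.21. The direct test between CD40L and LPS, which did not enter the choice of genes, gave no call for any member.

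The regions upstream of the 4 ID genes are shown because these are the members whose levels moved. All are RefSeq sequences on GRCh38.p14 and cover the 250 bases before the annotated transcription start, 5′ to 3′ on the strand of the gene. They are chr20:31605039-31605288 (plus strand) for ID1, chr2:8681806-8682055 (plus) for ID2, chr1:23559502-23559751 (minus) for ID3 and chr6:19837120-19837369 (plus) for ID4. Capitals mark matches to CANNTG, the E-box core that E proteins bind, where N is any base.
ID1: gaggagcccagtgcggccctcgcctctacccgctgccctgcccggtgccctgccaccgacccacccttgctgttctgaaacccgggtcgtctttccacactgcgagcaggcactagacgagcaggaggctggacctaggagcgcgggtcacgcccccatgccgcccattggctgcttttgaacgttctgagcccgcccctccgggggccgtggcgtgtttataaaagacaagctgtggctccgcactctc
ID2: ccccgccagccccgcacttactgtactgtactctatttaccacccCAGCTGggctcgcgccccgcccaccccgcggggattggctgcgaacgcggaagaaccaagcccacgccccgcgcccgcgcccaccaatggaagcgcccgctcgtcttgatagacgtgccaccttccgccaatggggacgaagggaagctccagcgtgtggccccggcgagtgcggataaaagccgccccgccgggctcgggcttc
ID3: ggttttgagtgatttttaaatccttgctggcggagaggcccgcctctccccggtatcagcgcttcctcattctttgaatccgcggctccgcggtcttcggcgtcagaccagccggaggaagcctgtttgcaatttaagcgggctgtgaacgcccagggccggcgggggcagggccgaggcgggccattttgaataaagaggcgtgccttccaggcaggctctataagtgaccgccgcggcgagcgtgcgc
ID4: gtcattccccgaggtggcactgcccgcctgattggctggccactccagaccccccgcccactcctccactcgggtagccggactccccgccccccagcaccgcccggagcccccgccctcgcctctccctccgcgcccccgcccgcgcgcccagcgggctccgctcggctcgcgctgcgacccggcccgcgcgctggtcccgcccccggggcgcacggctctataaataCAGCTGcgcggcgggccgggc

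The ID1 and ID3 windows have no CANNTG. ID2 and ID4 have 1 match each, CAGCTG in both, starting at -205 in ID2 and at -21 in ID4 relative to the start site. CANNTG and GGCGCC are their own reverse complements, so 1 search covers both strands. It occurs in 61.8% of 35116 promoter windows of this length, and CAGCTG, a subset of it, in 14% of them. TATAAA, the TATA box, was searched on both strands. ID1 has 2 overlapping matches, at -33 on the opposite strand and at -31 on the strand of the gene, and ID4 has 1 at -29. It occurs in 10.7% of all windows. CCAAT, searched on both strands, has 1 match in ID1, 3 in ID2, 1 in ID4 and none in ID3, against 32% of all windows with a match. GGCGCC, a core of the GC-rich elements that SMAD proteins are known to bind at ID genes, has no match in the 4 windows and occurs in 16.4% of all windows. The GC content is 66% for ID1, 69.2% for ID2, 62% for ID3 and 78.8% for ID4, beside a median of 58% over all windows. A match of letters is not a measured binding site.

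ID1 had the largest fall. Its level, on the deposited log2 scale, was 7.03, 6.93 and 7.07 in CD40L stimulated cells and 7.19, 6.99 and 7.18 in LPS stimulated cells, against 8.91, 9.18 and 8.97 in control cells of batches 1, 2 and 3. All 6 stimulated arrays lay far below all 3 control arrays. Of all probe sets, 16.4% did not overlap with control after CD40L and 13.4% after LPS, in either direction. The log2 difference from control was -2.01 ± 0.077 after CD40L and -1.90 ± 0.077 after LPS (SE of the fit, n = 3 each). No other probe set of the 54613 tested had a lower log2 difference in either comparison. Within batches 1, 2 and 3 the CD40L difference was -1.87, -2.25 and -1.90, and the LPS difference was -1.72, -2.19 and -1.79. The largest fall was thus in batch 2 for both stimuli, which share that control array.

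ID3, the family member most often mutated in Burkitt lymphoma, was measured by 1 bright probe set. Its level was 10.62, 10.41 and 10.54 in CD40L stimulated cells and 10.79, 10.40 and 10.90 in LPS stimulated cells, against 11.45, 11.46 and 11.61 in control cells. No stimulated array reached the control arrays. The log2 difference from control was -0.98 ± 0.076 after CD40L and -0.81 ± 0.076 after LPS. These rank 11 and 5 from the lowest among all probe sets. After LPS the batches were less even than after CD40L: the LPS differences of batches 1, 2 and 3 were -0.66, -1.06 and -0.71, and the CD40L differences were -0.83, -1.05 and -1.07.

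ID4 was measured by 5 probe sets. The brightest, 209291_at, read 8.79, 8.93 and 8.63 in CD40L stimulated cells and 8.96, 8.82 and 8.75 in LPS stimulated cells, against 9.81, 9.68 and 9.37 in control cells. Neither stimulated group overlapped with control, although batch 3 was low in all 3 groups, and the CD40L and LPS arrays overlapped with each other. The log2 difference was -0.84 ± 0.069 after CD40L and -0.78 ± 0.069 after LPS. The other probe sets fell by less. Their differences ran between -0.60 and -0.18 after CD40L and between -0.61 and -0.13 after LPS. The smallest difference was that of 229386_at, with group means of 6.19, 6.23 and 6.37 in CD40L, LPS and control cells, near the lower end of the array values, where the scale is flat and a change is understated.

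ID2 had the smallest difference of the family, and its CD40L arrays varied most between batches. The probe set 201565_s_at read 9.68, 10.10 and 9.38 in CD40L stimulated cells and 9.87, 10.01 and 9.60 in LPS stimulated cells, against 10.28, 10.32 and 10.18 in control cells. All stimulated arrays were below the control arrays, but those of batch 2 only narrowly. The log2 difference was -0.54 ± 0.082 after CD40L and -0.43 ± 0.082 after LPS, with batch values between -0.80 and -0.21 and between -0.58 and -0.30. The other ID2 probe set, 201566_x_at, is of a type whose probes can bind other transcripts. It differed by -0.39 ± 0.072 after CD40L and by -0.24 ± 0.072 after LPS, and its groups overlapped with control.

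**Figure D1:**
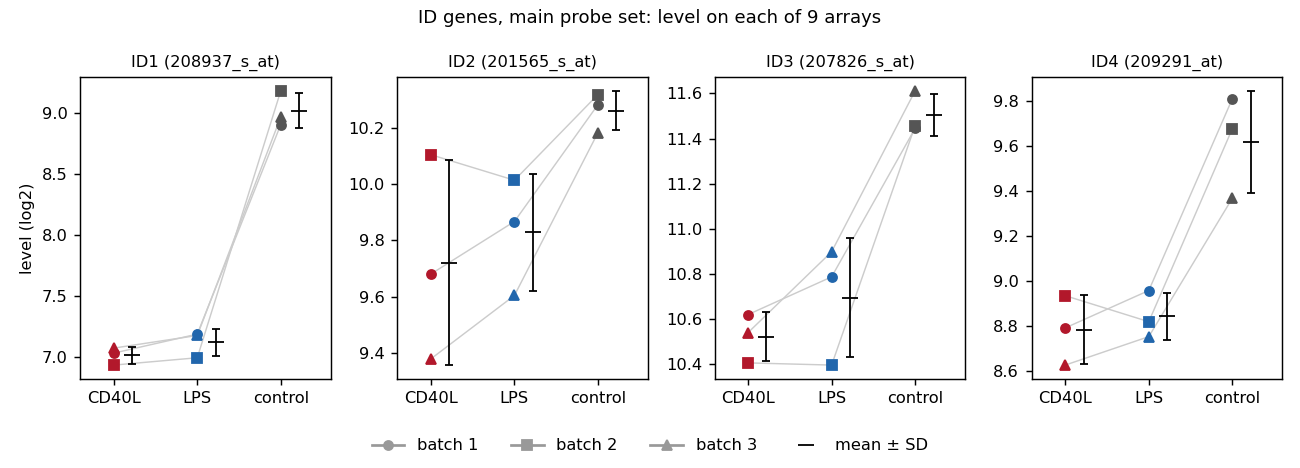
Level (log2 scale) of the main probe set of each ID gene on each of the 9 arrays; the vertical range differs between panels. Points are single arrays with their batch as the symbol, grey lines join the arrays of 1 batch, and black bars give the mean and SD of 3 arrays. In each panel all CD40L and LPS arrays lie below all control arrays, with ID1 between 6.93 and 7.19 in stimulated cells and between 8.91 and 9.18 in control cells. Of all probe sets, 16.4% did not overlap with control after CD40L and 13.4% after LPS, in either direction.

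A probe set was called where limma's moderated test gave a Benjamini-Hochberg adjusted p of at most 0.05 over all 54613 probe sets. Of the 35 members, 8 were called lower after CD40L, all of them ID probe sets, beside 1.87% of all probe sets called lower and 3.71% called higher. After LPS 9 were called lower, 7 ID and 2 TCF4 probe sets, beside 0.892% called lower and 1.17% called higher overall. After quantile normalisation the balance over all probe sets shifted: 1695 were called lower and 1708 higher after CD40L, against 1022 and 2027 on the deposited values, and 867 lower and 775 higher after LPS, against 487 and 637. Since these contrasts chose the genes, nothing is read from the members' counts. The median log2 difference over the 9 ID probe sets was -0.54 after CD40L and -0.43 after LPS. Over the 26 E protein probe sets it was -0.016 and -0.017, and over all probe sets 0.0050 and 0.0029. Some member calls changed in the 12 settings that left out a batch or an array. The ID4 call of 209293_x_at after LPS was lost without batch 1, and that of the ID4 probe set 226933_s_at after LPS was lost without each of the batches and without the LPS array of batch 1 or batch 2. The call of the ID2 probe set 201566_x_at after CD40L was lost without batch 1. The call of the main ID2 probe set after LPS was lost without batch 1, without batch 3, without any of the 3 LPS arrays and without the control array of batch 3, with log2 differences between -0.55 and -0.33 over the 12 settings. Without the batch term the main ID2 probe set lost its call after both stimuli.

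**Figure D2:**
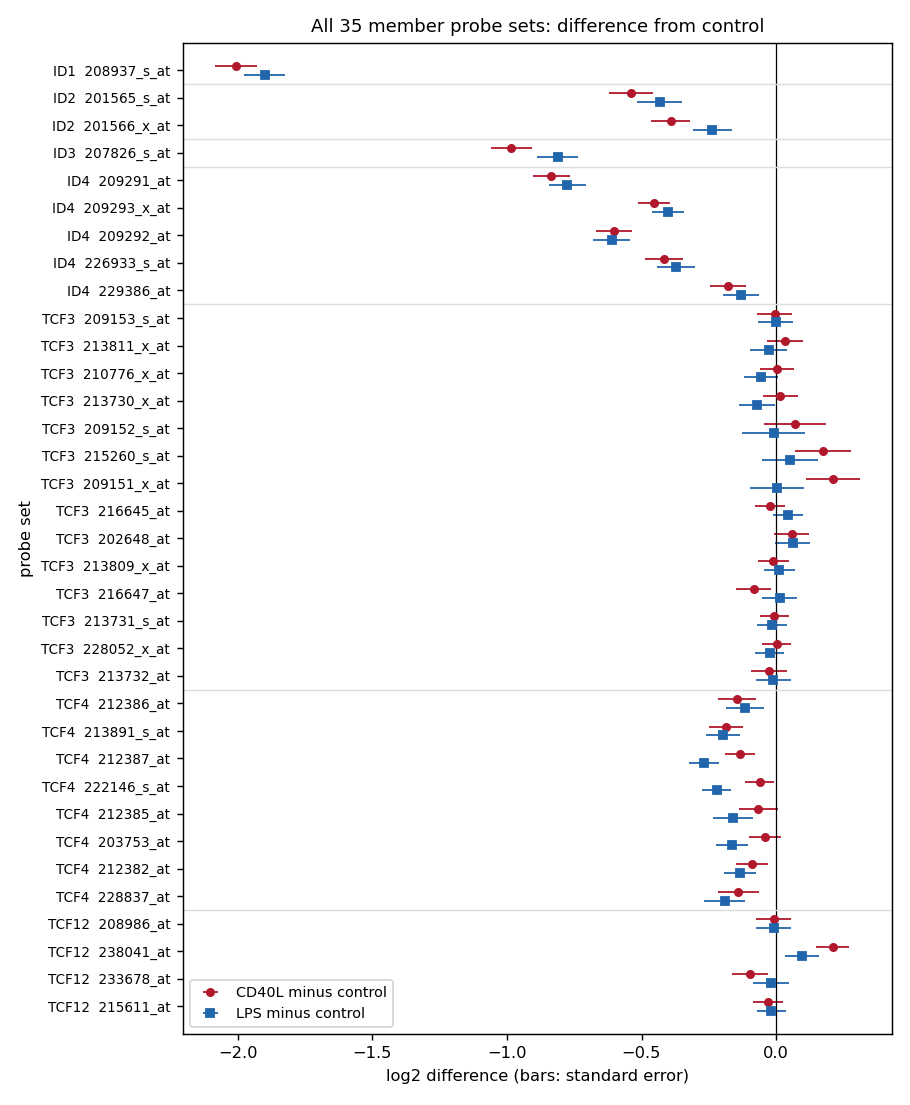
Log2 difference from control of all 35 member probe sets, grouped by gene, with CD40L minus control as circles and LPS minus control as squares; bars give the standard error of the fit over 9 arrays. The ID probe sets lie to the left of 0, down to -2.01 for ID1, while the E protein probe sets lie between -0.27 and 0.21.

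TCF3, whose products E12 and E47 are the most studied E proteins of B cells, had 14 probe sets. The main probe set, 209153_s_at, read 11.80, 11.74 and 11.84 in CD40L stimulated cells and 11.86, 11.83 and 11.70 in LPS stimulated cells, against 11.73, 11.78 and 11.89 in control cells. The groups overlapped. The log2 difference was -0.0045 ± 0.064 after CD40L and -0.0013 ± 0.064 after LPS. Over all TCF3 probe sets the differences ran between -0.084 and 0.21 after CD40L and between -0.071 and 0.062 after LPS. The probe set with the difference of 0.21, 209151_x_at, read 9.42, 9.02 and 8.77 in CD40L stimulated cells and 9.08, 8.90 and 8.60 in LPS stimulated cells, against 9.19, 8.49 and 8.90 in control cells. The stimulated arrays were highest in batch 1 and lowest in batch 3, whereas the control arrays were lowest in batch 2. The CD40L differences of batches 1, 2 and 3 were 0.23, 0.53 and -0.13. Without the control array of batch 3, this probe set and 209152_s_at and 215260_s_at were called higher after CD40L, with log2 differences of 0.38, 0.30 and 0.34.

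TCF4, the E protein E2-2 known from plasmacytoid dendritic cells and from germinal centre B cells, had 8 probe sets, and all were lower on average than in control cells after both stimuli. They read 1 gene in the same RNA and are not independent. The difference kept its sign in all batches for 3 of the 8 after CD40L and for 6 after LPS. The main probe set, 212386_at, read 11.67, 11.84 and 11.65 in CD40L stimulated cells and 11.81, 11.81 and 11.63 in LPS stimulated cells, against 12.01, 11.75 and 11.84 in control cells. In batch 2 both stimulated arrays were above the control array. The log2 difference was -0.14 ± 0.072 after CD40L and -0.12 ± 0.072 after LPS. The median over the 8 probe sets was -0.11 after CD40L and -0.18 after LPS, and the lowest values were -0.19 and -0.27.

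The 2 TCF4 probe sets called after LPS were 212387_at and 222146_s_at. The first read 10.03, 9.94 and 9.95 in LPS stimulated cells against 10.30, 10.18 and 10.26 in control cells, a log2 difference of -0.27 ± 0.055. The second read 9.83, 9.75 and 9.60 in LPS stimulated cells against 10.06, 9.94 and 9.84 in control cells, a difference of -0.22 ± 0.054. Their levels in CD40L stimulated cells were 10.23, 10.04 and 10.06 for 212387_at and 10.01, 9.91 and 9.74 for 222146_s_at, overlapping with the control range. Both calls were close to the threshold. That of 222146_s_at held in 1 of 12 settings that left out a batch or an array, the one without the CD40L array of batch 2, and that of 212387_at held in 6 of 12, being lost without batch 1, batch 3, any LPS array or the control array of batch 3. The differences themselves stayed between -0.29 and -0.21 for the pair. Without the control array of batch 2, or without batch 2, the main probe set and 228837_at were called lower after CD40L, with the lowest values at -0.26 and -0.28. In the same way 213891_s_at passed the threshold after CD40L without the control array of batch 3, and 212385_at and 228837_at passed it after LPS without the control array of batch 2. On quantile normalised values 212387_at and 213891_s_at also passed the threshold after CD40L, and 213891_s_at after LPS.

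TCF12, the E protein HEB, had 4 probe sets. The main probe set, 208986_at, read 9.33, 9.59 and 9.37 in CD40L stimulated cells and 9.45, 9.45 and 9.39 in LPS stimulated cells, against 9.37, 9.45 and 9.49 in control cells. The difference was -0.0089 ± 0.064 after CD40L and -0.0095 ± 0.064 after LPS. The probe set 238041_at read 7.56, 7.45 and 7.54 in CD40L stimulated cells and 7.35, 7.44 and 7.41 in LPS stimulated cells, against 7.38, 7.17 and 7.37 in control cells. The CD40L arrays lay above the control arrays, with a difference of 0.21 ± 0.063, which passed the threshold in 1 of the 12 settings, without the LPS array of batch 2. The other 2 probe sets had group means between 5.86 and 6.06, near the floor of the arrays, where a change can be hidden. Of the 26 E protein probe sets, 2 lay wholly below control and 1 wholly above it after CD40L, and 3 and 1 after LPS. Among all probe sets 16.4% and 13.4% were separated from control in this way, so these E protein counts are near that share.

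**Figure D3:**
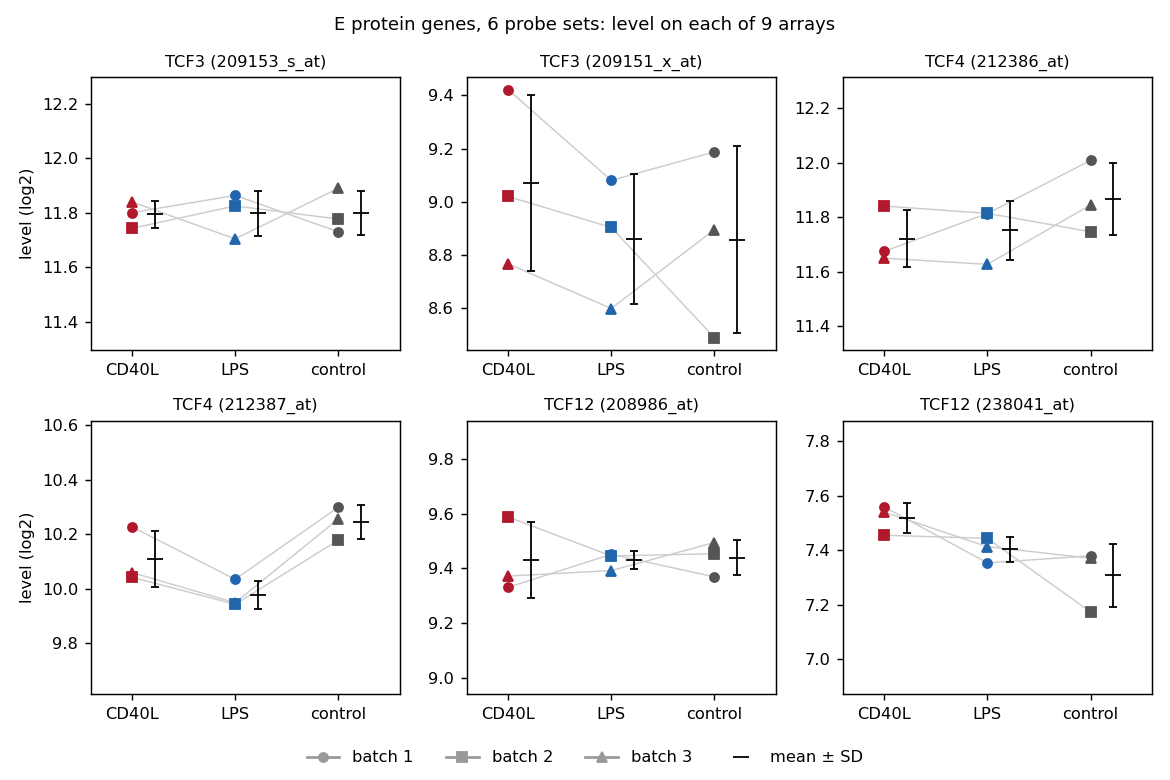
Level (log2 scale) of 6 E protein probe sets, 2 for each gene, on each of the 9 arrays; each panel spans about 1 log2 unit. Points are single arrays with their batch as the symbol, grey lines join the arrays of 1 batch, and black bars give the mean and SD of 3 arrays. The TCF4 probe set 212387_at has its 3 LPS arrays, at 9.94 to 10.03, below its control arrays, at 10.18 to 10.30 while its CD40L arrays overlap with control; in the main probe sets of the 3 genes all groups overlap. Of all probe sets, 13.4% did not overlap with control after LPS.

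The comparison of CD40L with LPS asked whether recombinant CD40L, in place of T cell help, and a microbial signal left the genes at different levels. It shares its arrays with the differences from control. None of the 35 members was called, beside 0.396% of all probe sets called in either direction, and 4 had an unadjusted p under 0.05. ID1 differed by -0.11 with a 95% interval between -0.27 and 0.058, and ID2 by -0.11, between -0.28 and 0.068. ID4 differed by -0.059, between -0.21 and 0.088. ID3 differed by -0.17, with an interval between -0.33 and -0.011, but its adjusted p in limma was 0.944 and in batch 2 the difference was 0.0097. The intervals are not adjusted for the number of tests. They leave room for differences of about the size of their bounds and do not show that the stimuli acted alike.

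The E protein genes also gave no call between the stimuli. TCF3 differed by -0.0032, with an interval between -0.14 and 0.13, and TCF12 by 0.00059, between -0.14 and 0.14. The main TCF4 probe set differed by -0.030, between -0.18 and 0.12. The smallest unadjusted p of all members, 0.00941, was that of the TCF4 probe set 222146_s_at, which was higher after CD40L in 3 of 3 batches by 0.18, 0.15 and 0.15. Its mean log2 difference was 0.16 with an interval between 0.045 and 0.28, and its limma adjusted p was 0.604. The neighbouring probe set 212387_at was also higher after CD40L in 3 of 3 batches, with a difference of 0.13 and a limma adjusted p of 0.893.

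**Figure D4:**
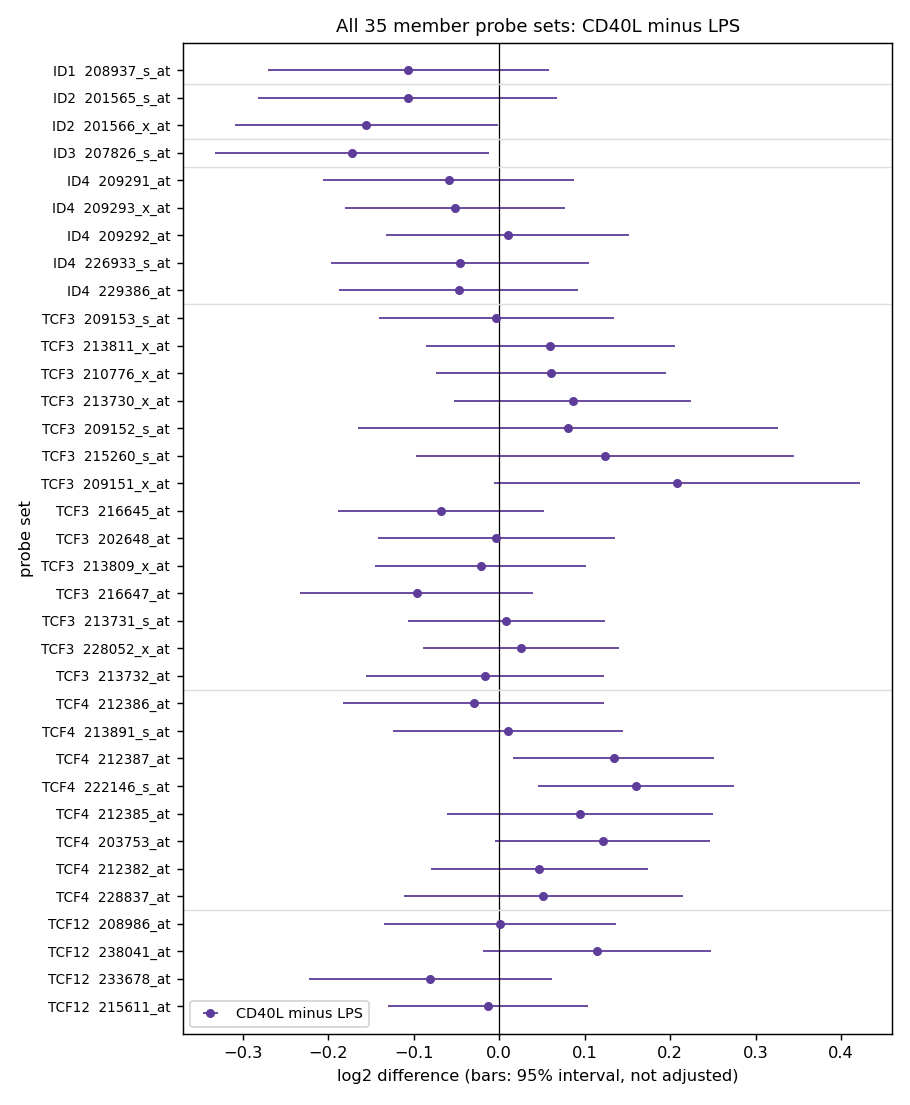
Log2 difference CD40L minus LPS of all 35 member probe sets, grouped by gene; bars give 95% intervals that are not adjusted for the number of tests. Most intervals span 0, and those of ID3, the ID2 probe set 201566_x_at and the TCF4 probe sets 212387_at and 222146_s_at do not, with adjusted p-values between 0.604 and 0.998.

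Genes around the family were read from lists, with 1 main probe set for each gene. The lists were written with earlier results of these data known. Calls and p-values of listed genes are therefore descriptions and not independent support. Over all 19775 genes, 2.9% were called lower and 5.02% higher after CD40L, 1.47% lower and 1.6% higher after LPS, and 0.632% in either direction between CD40L and LPS. Of 25 measured genes for other helix-loop-helix factors, which include E protein partners and competitors, 1 was called after each stimulus. This was TFEB, a lysosomal gene activator, with log2 differences of 0.43 ± 0.085 after CD40L (limma adjusted p = 0.00544) and 0.39 ± 0.085 after LPS (limma adjusted p = 0.0223). The CD40L call was lost without batch 3 and without the CD40L array of batch 2, and the LPS call in 7 of 12 such settings, so that 5 kept it. Many of the 25 helix-loop-helix genes were near the floor of the arrays, where a change can be hidden. TWIST1, for example, had group means of 5.99, and TFEC between 5.85 and 5.92. Of 12 cofactors of E proteins, 2 were called after CD40L: CBFA2T3, the corepressor ETO2, was higher by 0.39 ± 0.081 and LMO4, a LIM adaptor, differed by -0.27 ± 0.075. Their calls held in 9 and 3 of 12 settings. After LPS 0 of the 12 were called by limma, with 4 at an unadjusted p under 0.05. GATA3 of this list was near the floor, with group means between 6.19 and 6.26. Between CD40L and LPS, HEY2, a Notch target that acts as a repressor, was the 1 helix-loop-helix gene called, with a log2 difference of 0.36 ± 0.066 (limma adjusted p = 0.0216), a call that held in 3 of 12 settings.

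B lineage genes tied to E proteins changed in both directions. Of 25 measured, 4 were called higher and 7 lower after CD40L, and 2 higher and 7 lower after LPS, with a list median of 0.034 and 0.053 beside 0.0053 and 0.0020 for all genes. IGLL1, the lambda 5 part of the surrogate light chain and a classical E protein target, read 10.12, 9.87 and 9.76 in CD40L stimulated cells and 9.94, 9.59 and 9.57 in LPS stimulated cells, against 9.22, 9.17 and 9.06 in control cells. All stimulated arrays were above the control arrays, with limma adjusted p-values of 1.5e-06 and 0.000234. VPREB3, a further surrogate light chain related gene, went the other way, with log2 differences of -0.59 ± 0.059 and -0.32 ± 0.059. CD79A, which encodes a signalling chain of the B cell receptor, differed by -0.45 ± 0.055 and -0.38 ± 0.055. RAG1 and RAG2, the recombinase genes, were not called after either stimulus. Their group means, 5.96 to 6.02 and 6.33 to 6.41, were near the floor of the arrays, where a change can be hidden. POU2AF1, a B cell coactivator of octamer factors, read 12.22, 12.12 and 12.19 in CD40L stimulated cells and 11.88, 11.71 and 11.82 in LPS stimulated cells, and its direct difference of 0.38 ± 0.068 was called (limma adjusted p = 0.0189), holding in 4 of 12 settings.

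Among the interferon regulatory factors of this list, IRF4, which drives plasma cell fate, was called higher after CD40L (0.46 ± 0.077) and after LPS (0.58 ± 0.077). IRF8, a germinal centre factor, was called lower. It read 10.19, 10.05 and 10.13 in CD40L stimulated cells and 10.64, 10.49 and 10.73 in LPS stimulated cells, against 10.92, 11.11 and 11.11 in control cells. The 3 groups did not overlap. The direct difference, -0.50 ± 0.069, was called (limma adjusted p = 0.00226), although not without batch 3, nor without the LPS array of batch 1 or of batch 3, nor without the CD40L array of batch 3. The LPS call of IRF8 was lost without batch 3, and those of IGLL1, CD79A and IRF4 held in all 12 settings after both stimuli. The LPS call of VPREB3 held in 7 of 12.

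The list of BMP and SMAD signalling genes had 36 measured members. It also holds TGF-beta genes and inhibitors of these pathways. Of these 1 was called higher and 6 lower after CD40L, and 3 lower after LPS, with list medians of -0.025 and -0.016. Some of the list were near the floor of the arrays, such as GREM1, with group means between 5.85 and 5.88. SMAD1, a direct transducer of BMP receptors, read 8.76, 8.78 and 8.34 in CD40L stimulated cells and 9.27, 9.26 and 8.95 in LPS stimulated cells, against 9.92, 9.71 and 9.64 in control cells. The 3 groups were separate, in the order CD40L, LPS and control. The log2 difference was -1.13 ± 0.067 after CD40L and -0.59 ± 0.067 after LPS, and the direct difference of -0.53 ± 0.067 was called (limma adjusted p = 0.000815). That call was lost without batch 3, where the value was within the range of -0.60 to -0.47 seen over 12 settings, and without the batch as a fixed term. The LPS call of SMAD1 was lost in the fit without the batch. SMAD5, a further transducer of the same receptors, was not called after either stimulus, and SMAD9 differed by -0.33 ± 0.060 and -0.30 ± 0.060. BMP7, a ligand, differed by -0.73 ± 0.082 after CD40L and -0.40 ± 0.082 after LPS, and BMP6, also a ligand, by 0.37 ± 0.066 after CD40L, where it was called. After LPS the calls of BMP7 and SMAD9 held in 6 and 7 of 12 settings. A link between the genes of this list and the falls of the ID genes was not tested.

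**Figure D5:**
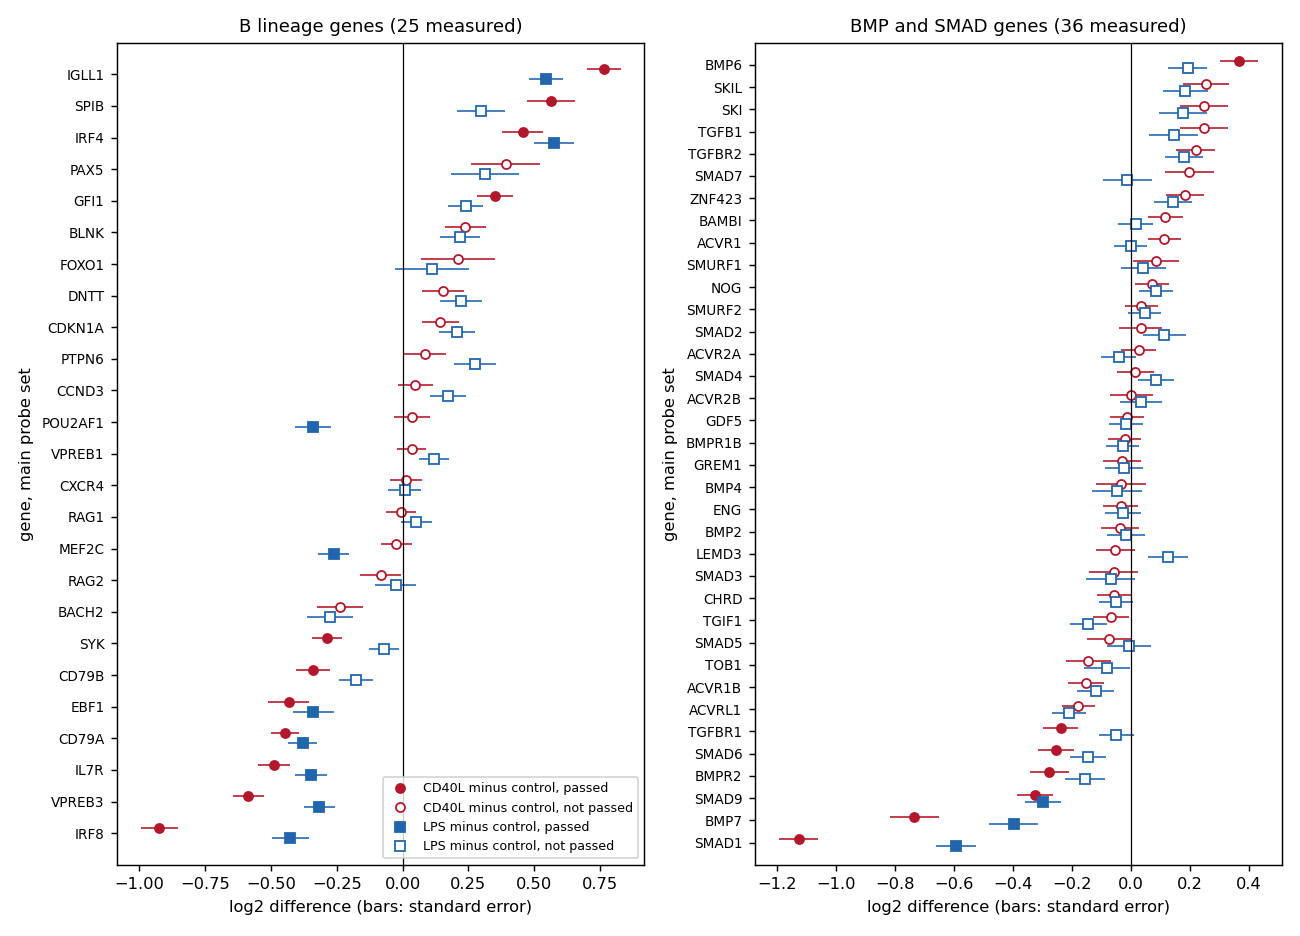
Log2 difference from control of the 25 measured B lineage genes (left) and the 36 measured BMP and SMAD genes (right), with CD40L minus control as circles and LPS minus control as squares; bars give the standard error, and filled symbols passed an adjusted p of 0.05. IGLL1 is at the top of the left panel at 0.76 and 0.54, IRF8 at its bottom at -0.92 and -0.43, and SMAD1 at the bottom of the right panel at -1.13 and -0.59.

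Of 5 measured EGR factors and corepressors, which are known upstream regulators of ID3 in lymphocytes, 0 were called in either comparison with control. In the limma fit 1 had an unadjusted p under 0.05 after CD40L and 0 after LPS. EGR1, an immediate early gene, differed by -0.26 ± 0.079 after CD40L. It read 6.36, 6.35 and 6.48 in CD40L stimulated cells against 6.91, 6.50 and 6.56 in control cells. These levels are dim, around the array medians of 6.42 to 6.47. Without the control array of batch 2, without batch 2 or without the control array of batch 3 EGR1 passed the threshold. Of 9 genes for the turnover of ID and E proteins, SKP2, a ubiquitin ligase subunit, was called higher after both stimuli, by 0.33 ± 0.066 and 0.29 ± 0.066. These calls held in 8 and 5 of 12 settings. USP1, a deubiquitinase known to stabilise ID proteins, was not called.

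Markers of the B cell and germinal centre identity were well above the array medians of 6.42 to 6.47, with gene means between 8.05 and 13.0. Of 5 measured germinal centre markers, BCL6, MME, CD38 and MYBL1 were called lower after both stimuli, by up to 0.65 on the log2 scale for CD38 after CD40L, where the difference was -0.65 ± 0.064. Of 5 B cell markers, 3 were called lower after CD40L and 1 after LPS. The mean level over the 5 germinal centre markers was 9.05 to 9.13 on CD40L arrays and 9.16 to 9.26 on LPS arrays, against 9.54 to 9.58 on control arrays. That over the 5 B cell markers was 10.54 to 10.59 on CD40L arrays and 10.61 to 10.67 on LPS arrays, against 10.65 to 10.79 on control arrays. Their part in the falls of the ID genes was not tested. The LPS calls of the 4 germinal centre markers held in between 6 and 10 of 12 settings. T cell, monocyte and macrophage, and fibroblast markers had gene means between 5.80 and 6.67, in the dim range around or below the array medians. By limma, 0 of their 5, 5 and 6 genes were called in any comparison. After CD40L 1 T cell and 1 fibroblast gene had an unadjusted p under 0.05 in limma, and 0 had in the other comparisons.

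The patterns most like those of ID1, ID3 and ID4 were found by Pearson's r over the 9 arrays after subtracting each batch mean, among 990 genes that vary by at least 0.5. The 9 points share their control arrays and lie in a stimulated and an unstimulated cluster, so r is a description only. For ID1 the highest r values were those of LOC105379499 (0.997), SP140 (0.993), SLC44A1 (0.992), MXI1 (0.992) and PPP2R5A (0.990). The most opposite were SLC39A11 (-0.990), ANXA7 (-0.982) and PSPC1 (-0.981). For ID3 they were RALB, TMT1A, STAP1, RGS18 and PPP2R5A, with r between 0.991 and 0.995, and the most opposite were SLC39A11, OLFML2A and ZC3H7A. For ID4 they were TRIM22, SPG11, PECAM1, DNAJB4 and EVI2A, with r between 0.987 and 0.993, and the most opposite were PDLIM3, ARHGAP25 and FUCA1. PPP2R5A and SLC39A11 were thus named for both ID1 and ID3, in opposite directions. The names for ID4 were others, but lists this short do not set ID4 apart. Its own r was 0.979 with ID1 and 0.964 with ID3. The log2 differences of PPP2R5A were -0.44 after CD40L and -0.41 after LPS, smaller than those of ID1 and ID3.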

How the data were processed

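Total RNA of BL2 cells had been hybridised to 9 HG-U133 Plus 2.0 arrays. The authors corrected and normalised probe intensities by variance stabilisation, combined the probes of a set by median polish, and deposited generalised log2 values on a scale that is flatter than log2 for dim probe sets and so understates their changes. No further scaling was applied. Array medians were 6.42 to 6.47, values ran between 5.46 and 14.8, and replicate arrays correlated at 0.994 to 0.997. Precision is limited by the small number of arrays. Of 54675 probe sets, 62 AFFX controls were left out. Gene names come from the platform annotation, updated through Entrez identifiers with the RefSeq gene table of GRCh38.p14.

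All 9 arrays were fitted in limma 3.58.1 (lmFit, eBayes; R 4.3.3; statmod 1.5.0) with condition and batch, with Benjamini-Hochberg adjustment over 54613 probe sets and a threshold of 0.05. The batch numbers of the sample titles pair the arrays. Deviations of same-numbered arrays correlated at 0.217 on average, against -0.109 for other pairs. The control array of batch 2 was an exception: it correlated at -0.18 with the CD40L array and at -0.040 with the LPS array of its own batch, and at 0.38 and 0.32 with those of batch 3. The main probe set of a gene is its brightest on average that names 1 gene and does not end in _x_at. Named genes are the members, up to 4 called genes of a list with the largest change in a contrast, and listed genes named for their role. The members and lists were chosen with earlier results of these data known. Tried in turn were fits without the batch, with it as a random effect or on 2 groups only, quantile normalisation, median centring, no dim probe sets, AFFX kept, trend and robust eBayes, other probe sets, and leaving out each batch or array. The fit was tested on simulated data.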

Additional observations from a re-analysis of the deposited data

How the results depend on the processing

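Over the alternatives and both comparisons with control, log2 differences of the main probe sets ran between -2.09 and -1.76 for ID1, between -1.06 and -0.69 for ID3 and between -0.90 and -0.71 for ID4. These values chose the genes, so the ranges are descriptions, and for ID1 and ID3, with 1 probe set each, no other probe set could be tried. The ID2 call was lost in 1 alternative after CD40L, the fit without the batch block, and in 8 after LPS. Of all probe sets, 3049 were called after CD40L, 1124 after LPS and 216 between CD40L and LPS. Without the replicate block these counts were 1446, 322 and 73, and with the block as a random effect 1789, 495 and 97. On the 2 groups alone they were 1798 after CD40L and 548 between CD40L and LPS. Leaving out a batch or an array gave 1330 to 3316 after CD40L, 262 to 1361 after LPS and 34 to 486 between CD40L and LPS. The members called were then 7 to 12 after CD40L and 4 to 11 after LPS, the lowest without batch 1, and 0 between CD40L and LPS. In CD40L minus LPS, small differences changed sign. TCF12 was at -0.030 after quantile normalisation, and leaving out arrays gave -0.071 to 0.061 for TCF12, -0.084 to 0.046 for TCF3, -0.10 to 0.045 for TCF4 and -0.15 to 0.014 for ID4. The probe set of the largest difference gave 0.21 for TCF3 and 0.16 for TCF4. The cause of these changes was not tested. The 9 arrays leave 4 residual degrees of freedom, and near the floor of the arrays the scale is flat, so small changes and those of dim probe sets can be missed.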
